A study of Mus musculus with 4 samples.

Results

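The genes described here encode the mitochondrial ribosomal proteins. They were taken by symbol, as every listed gene named Mrpl or Mrps followed by a number and, for some, a letter. This gave 78 of the 18702 genes listed, 49 named for the large subunit (Mrpl) and 29 for the small subunit (Mrps), spread over 17 chromosomes, and all 78 passed the filter on low values. Total RNA of embryonic eye tissue from C57BL/6 mice was sequenced in 4 libraries. The groups were 2 libraries from Anp32b-null embryos (Anp32b-/-, labelled KO) and 2 from wild-type embryos (Anp32b+/+, labelled WT). Anp32b encodes an acidic, leucine-rich nuclear phosphoprotein that binds histones. No treatment is given in the labels, and neither the age of the embryos nor their sex, nor how many were pooled per library, is stated there. The labels do not say whether replicates are separate embryos. The p-values therefore reflect the spread among these 4 libraries alone, and that spread may be technical.

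The mitochondrial ribosome translates the small set of messenger RNAs encoded by mitochondrial DNA, which specify core subunits of the oxidative phosphorylation complexes. Its ribosomal RNAs come from mitochondrial DNA, while all of its proteins are encoded in the nucleus, made on cytosolic ribosomes and imported. Part of the proteins have bacterial counterparts and the others are specific to mitochondria. The large subunit forms peptide bonds and the small subunit decodes the message, so the proteins of each subunit are needed together.

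Genes for mitochondrial proteins are known to be bound near their starts by the transcription factors NRF1, GABP (an ETS family factor) and YY1. RefSeq promoter windows of GRCm38.p6, from 250 bases before to 50 bases after each start, were matched for 69 of the 78 genes and searched on both strands for fixed letters. The ETS core CCGGAAG lay in 25 of these 69 promoters (36.2%), against 17.0% of the 11026 promoters of tested genes. The YY1 motif AAGATGGCG lay in 8 (11.6%), against 2.98% of all. The NRF1 motif, which is GCGCA and GCGC with any 1 base between them, lay in 13 (18.8%), against 9.91% of all. At least 1 of these 3 motifs lay in 40 of the 69 promoters (58.0%), against 27.0% of all tested promoters. The CCAAT box (CCAAT) lay in 39.1% of member promoters and 38.9% of all, and the GC box GGGCGG in 49.3% and 64.1%. The E-box CACGTG lay in 7.25% of member promoters and 9.93% of all, and the TATA box TATAAA in 5.80% and 7.16%. These shares are descriptions of letters in fixed windows and show no binding, and promoters of close neighbours can share bases. None of these motifs contains another, and a promoter can hold more than 1.

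**Figure D1:**
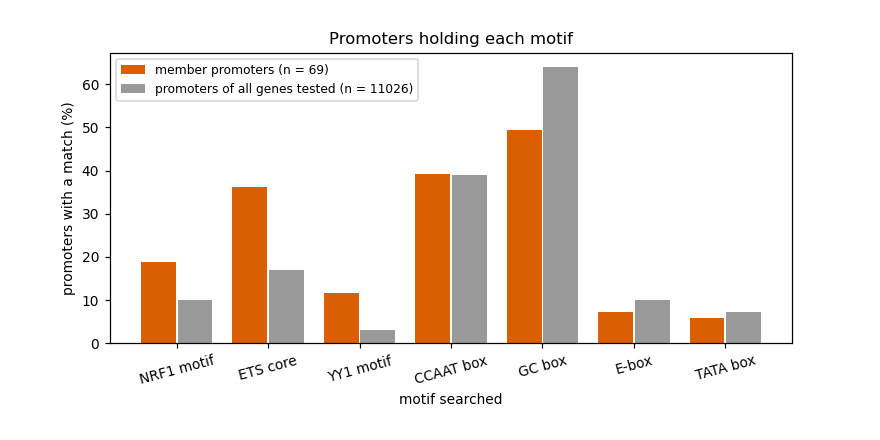
Share of promoters (percent, vertical axis) that hold each motif on either strand, for the 69 matched promoters of mitochondrial ribosomal protein genes (orange) and for 11026 promoters of tested genes (grey). The ETS, YY1 and NRF1 bars of the members stand above grey, at 36.2%, 11.6% and 18.8%, and the GC box bar stands below it.

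The promoters shown are those of the member with the largest fall (Mrps33), of the pair with the largest rises (Mrps16 and Mrpl14), and of Mrps11 and Mrpl46, which start next to each other on opposite strands and both fell. They are written 5′ to 3′ on the strand of the gene, in lower case. Capitals mark the reverse complement of the ETS core in Mrps33 and Mrps16, the NRF1 motif in Mrpl14, and the reverse complement of the YY1 motif in Mrps11. In Mrpl46 no match to these 3 motifs was found, and capitals mark instead the last 141 bases of its window, which are the opposite strand of bases that also lie in the Mrps11 window. The windows are chr6:39810887-39811186 on the minus strand for Mrps33, chr14:20393441-20393740 on the minus strand for Mrps16, chr17:45686099-45686398 on the plus strand for Mrpl14, chr7:78782881-78783180 on the plus strand for Mrps11 and chr7:78783040-78783339 on the minus strand for Mrpl46.
Mrps33: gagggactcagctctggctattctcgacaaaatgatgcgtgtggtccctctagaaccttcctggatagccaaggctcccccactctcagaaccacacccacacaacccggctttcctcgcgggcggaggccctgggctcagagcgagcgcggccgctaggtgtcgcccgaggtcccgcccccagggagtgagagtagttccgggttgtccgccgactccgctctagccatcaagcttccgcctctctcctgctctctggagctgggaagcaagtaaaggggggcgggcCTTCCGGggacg
Mrps16: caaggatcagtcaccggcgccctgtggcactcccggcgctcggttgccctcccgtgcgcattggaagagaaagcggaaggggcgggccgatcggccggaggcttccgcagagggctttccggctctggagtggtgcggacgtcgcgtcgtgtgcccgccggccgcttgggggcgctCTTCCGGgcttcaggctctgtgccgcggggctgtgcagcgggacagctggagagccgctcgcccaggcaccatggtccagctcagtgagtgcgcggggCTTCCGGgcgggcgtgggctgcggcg
Mrpl14: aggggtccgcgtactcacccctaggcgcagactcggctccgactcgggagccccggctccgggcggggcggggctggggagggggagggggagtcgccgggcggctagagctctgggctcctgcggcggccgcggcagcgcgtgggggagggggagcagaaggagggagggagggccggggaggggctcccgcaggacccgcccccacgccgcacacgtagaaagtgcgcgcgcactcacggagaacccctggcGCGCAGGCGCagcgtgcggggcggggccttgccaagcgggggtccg
Mrps11: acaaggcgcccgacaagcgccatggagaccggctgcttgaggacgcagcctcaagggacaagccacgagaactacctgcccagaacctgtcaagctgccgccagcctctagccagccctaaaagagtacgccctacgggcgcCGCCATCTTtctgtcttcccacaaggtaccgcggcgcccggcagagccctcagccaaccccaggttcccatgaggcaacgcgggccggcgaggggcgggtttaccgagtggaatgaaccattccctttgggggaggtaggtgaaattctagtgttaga
Mrpl46: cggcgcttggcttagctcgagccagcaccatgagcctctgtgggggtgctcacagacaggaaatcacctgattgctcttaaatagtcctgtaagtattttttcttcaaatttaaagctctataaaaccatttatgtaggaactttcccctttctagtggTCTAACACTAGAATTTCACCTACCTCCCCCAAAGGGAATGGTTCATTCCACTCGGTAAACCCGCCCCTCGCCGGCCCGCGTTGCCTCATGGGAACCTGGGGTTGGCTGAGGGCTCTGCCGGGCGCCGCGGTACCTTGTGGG

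Levels were given by the authors as FPKM, fragments per kilobase of transcript relative to a library's fragments, a scale per length on which genes can be set side by side. Mean levels over the 4 libraries ran from 4.65 FPKM for Mrpl17 to 60.0 FPKM for Mrpl24, both proteins at the exit of the peptide tunnel, with a median of 25.1 FPKM and a 12.9-fold range. The small-subunit genes covered a narrower range, from 11.4 FPKM for Mrps25 to 52.4 FPKM for Mrps21, or 4.61-fold. Mrpl24 had 58.41 and 63.19 FPKM in KO and 56.11 and 62.42 FPKM in WT. Mrpl42 had 58.68 and 56.63 FPKM in KO and 59.89 and 59.25 FPKM in WT, and Mrpl30 had 55.94 and 56.17 FPKM in KO and 52.11 and 54.59 FPKM in WT. The libraries of Mrpl24 overlapped between the groups and those of Mrpl42 and Mrpl30 did not, yet none of the 3 passed the test. Mrpl17 had 4.78 and 4.70 FPKM in KO and 4.56 and 4.58 FPKM in WT. Among small-subunit genes, Mrps21, a bacterial-type protein, had 51.47 and 53.98 FPKM in KO and 53.07 and 51.16 FPKM in WT. Mrps25, the lowest of them, had 11.36 and 10.98 FPKM in KO and 11.04 and 12.06 FPKM in WT. Values of Mrpl24 and Mrpl42 overlapped, so their order was not resolved, while both stood above Mrpl30 in each of the 4 libraries.

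The summed FPKM of the 78 genes was 2002 and 2037 in the KO libraries and 2052 and 2097 in the WT libraries. As a share of all FPKM it was 0.469% and 0.474% in KO, and 0.443% and 0.448% in WT. The sum was thus lower and the share higher in KO, since the total of all FPKM was itself smaller there, at 426433 and 429604 against 462820 and 468332. The large-subunit genes summed to 1338 and 1352 FPKM in KO and 1371 and 1400 FPKM in WT, and the small-subunit genes to 664 and 685 FPKM in KO and 681 and 697 FPKM in WT. The small-subunit sums overlapped between the groups. The median large-subunit gene stood at 26.2 and 26.5 FPKM in KO and 27.5 and 27.8 FPKM in WT, and the median small-subunit gene at 21.6 and 21.8 FPKM in KO and 21.6 and 21.2 FPKM in WT. The ratio of the 2 medians was 1.212 and 1.217 in KO and 1.276 and 1.309 in WT, given as a description with no test.

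On the FPKM scale most mitochondrial ribosomal protein genes differed by less than 0.1 (log2) between KO and WT. Fold changes and tests come from limma on log2(FPKM + 1), a scale that understates changes of low genes, with a Benjamini-Hochberg adjusted p under 0.05 over all 13887 tested genes. Of the 78 members, 18 passed, 5 higher and 13 lower in KO. That is 23.1% of members, where 54.6% of all tested genes passed, 33.5% higher and 21.1% lower. At an unadjusted p under 0.05, 25 members passed. The log2 fold changes ran from -0.40 to 0.29, with quartiles of -0.09 and 0.04 and a median of -0.04, while over all tested genes the median was 0.04 and the quartiles were -0.12 and 0.24. The change was under 0.1 in size for 52 members (66.7%), against 32.0% of all tested genes. That count was 36 (46.2%) with TPM, 42 (53.8%) with median-of-ratios scaling and 31 (39.7%) with a scaling that leaves out crystallin and erythroid genes, against 24.6%, 31.2% and 29.6% of all genes. In FPKM, the KO mean lay between 90% and 110% of the WT mean for 60 members, against 39.7% of all. Both KO values lay beyond both WT values for 42 members (16 above and 26 below, 53.8%), where this held for 77.9% of all tested genes. Replicates of these genes differed by a median of 0.068 in KO and 0.053 in WT on the log2 scale. Fits that left out a library kept 1 library in a group. Some member calls were lost in each of them, and each also called fewer genes over the whole table, both higher and lower. Calls lost in leave-out fits, here and below, therefore cannot be read as particular to these genes. In bulk tissue, fewer cells of a type and less RNA per cell cannot be told apart.

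**Figure D2:**
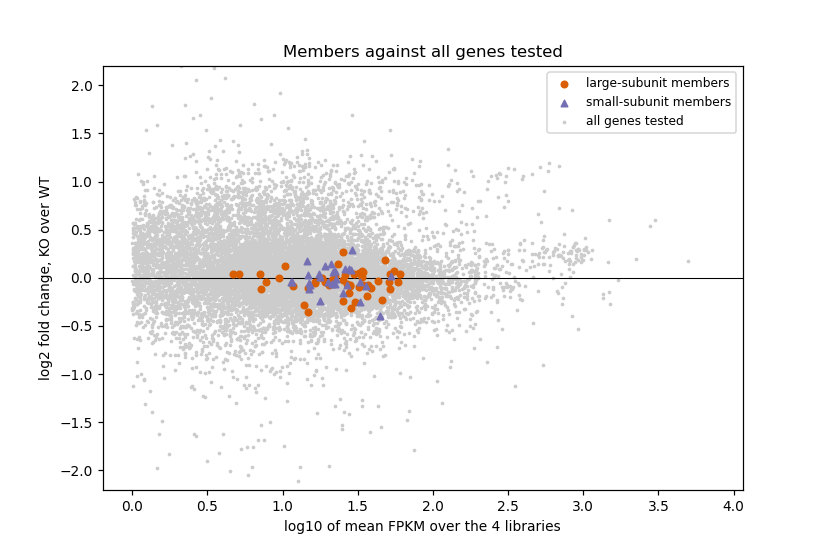
Log2 fold change of KO over WT (vertical axis) against the log10 of mean FPKM over the 4 libraries (horizontal axis) for all 13887 tested genes (grey), with large-subunit and small-subunit members in colour; 41 genes beyond 2.2 in size lie outside the plot. The members lie between -0.40 and 0.29, with 52 of 78 closer to 0 than 0.1 on this scale, against 36 with TPM and 31 without crystallin and erythroid genes.

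Both subunits had the same median log2 fold change, -0.04. Of the 49 large-subunit genes 3 rose and 10 fell in KO (26.5%), and of the 29 small-subunit genes 2 rose and 3 fell (17.2%). Symbols do not match structure for every member. Mrps30 and Mrps18a encode proteins that sit in the large subunit, and Mrps36 is now known to encode an adaptor of the alpha-ketoglutarate dehydrogenase complex. With members placed by structure, 3 rose and 10 fell of 51 large-subunit genes, and 2 rose and 3 fell of 26 small-subunit genes. Leaving out KO replicate 2 or WT replicate 1 left 1 large-subunit gene called higher. Leaving out KO replicate 2 left 0 small-subunit genes called higher by limma (2 at an unadjusted p under 0.05), and leaving out WT replicate 2 left 1 called lower. Whether the 2 subunits differ in the share of genes that changed was not tested.

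The direction of the group as a whole depended on how the libraries were scaled. With the authors' TPM values, which rescale each library to the same sum, 24 members rose and 8 fell (41.0%), where 61.9% of all genes were called, 49.9% higher and 12% lower. With median-of-ratios scaling 4 rose and 20 fell (all genes 28.3% and 26.5%, together 54.9%), and with a scaling that leaves out crystallin and erythroid genes 3 rose and 32 fell (all genes 25.4% and 31.2%, together 56.6%). The median of all genes moved with the scaling, from 0.04 with FPKM to 0.16 with TPM. Relative to that median, the members stood at -0.081 with FPKM, -0.082 with TPM and -0.083 with the other 2 scalings. Each scaling multiplies all genes of a library by the same factor, so such relative values hardly can change. Their near-equality is therefore no check on the result. The large-subunit median relative to all genes was between -0.084 and -0.081, and the small-subunit median between -0.083 and -0.081, over the same 4 scalings.

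**Figure D3:**
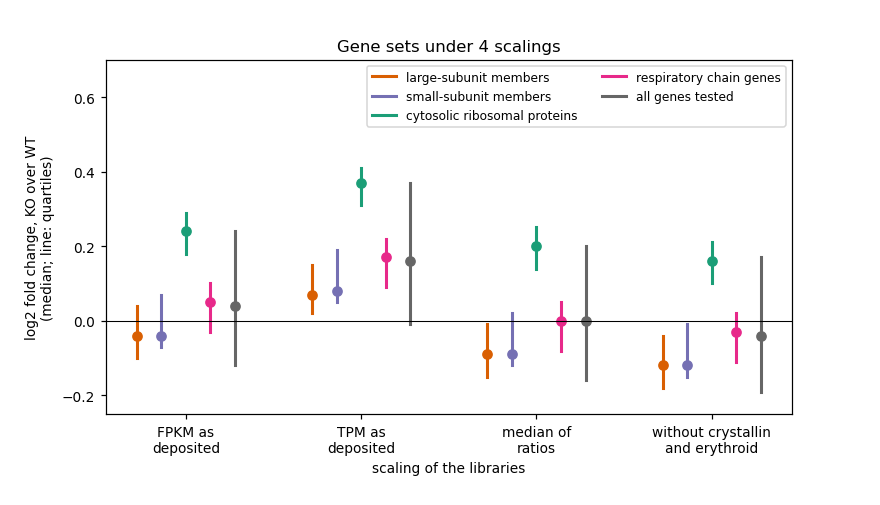
Median log2 fold change of KO over WT (points) with quartiles (lines) for gene sets under 4 scalings of the libraries. The large-subunit and small-subunit medians move together, from -0.04 with FPKM to 0.07 and 0.08 with TPM and to -0.12 without crystallin and erythroid genes, and lie below the cytosolic ribosomal proteins under each scaling. Each scaling shifts all genes of a library nearly alike, so the distances between sets stay nearly fixed by construction.

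Among large-subunit genes, Mrpl46, Mrpl37, Mrpl11, Mrpl3, Mrpl21 and Mrpl28 fell by at least 0.2 on the log2 scale. Mrpl46, a mitochondrion-specific protein of the central protuberance, had 12.99 and 12.65 FPKM in KO and 17.48 and 16.04 FPKM in WT. Its KO mean was 76.5% of WT, a log2 fold change of -0.36 (SE 0.05, limma adjusted p = 0.00107). Mrpl37, also specific to mitochondria (chr4:107055874-107066868, minus strand, GRCm38), had 24.52 and 25.73 FPKM in KO and 31.78 and 31.39 FPKM in WT. The groups were far apart relative to their spread, with a log2 fold change of -0.32 (SE 0.04, limma adjusted p = 0.000434). Mrpl11 belongs to the family at the base of the stalk that recruits translation factors. It had 12.86 and 12.22 FPKM in KO and 15.38 and 15.52 FPKM in WT, a log2 fold change of -0.28 (SE 0.04, limma adjusted p = 0.00171). Mrpl3, of the family whose bacterial member reaches toward the peptidyl transferase centre, had 27.98 and 27.49 FPKM in KO and 33.46 and 33.12 FPKM in WT. All KO values of these genes lay below all WT values.

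Mrpl21 and Mrpl28, both of bacterial-type families, fell to 84.3% and 84.7% of WT. Mrpl21 had 23.68 and 22.69 FPKM in KO and 27.52 and 27.48 FPKM in WT (limma adjusted p = 0.00167), and Mrpl28 had 42.55 and 40.92 FPKM in KO and 49.80 and 48.79 FPKM in WT (limma adjusted p = 0.00115). Smaller falls were called for Mrpl58, a peptide-release factor homolog that became a ribosomal protein, with 33.56 and 34.62 FPKM in KO and 38.14 and 39.89 FPKM in WT, and for Mrpl20, Mrpl18 and Mrpl23. Mrpl20 had 27.34 and 25.11 FPKM in KO and 29.12 and 29.42 FPKM in WT. Mrpl18, of the family that binds 5S ribosomal RNA in bacteria, had 49.47 and 50.53 FPKM in KO and 55.13 and 53.21 FPKM in WT. Mrpl23, a tunnel exit protein, had 36.73 and 37.60 FPKM in KO and 39.27 and 41.07 FPKM in WT. The calls of these 4 genes were not held with TPM, where the log2 fold changes were -0.07 for Mrpl58 and -0.04 for Mrpl20, and turned in direction to 0.01 for Mrpl18 and 0.01 for Mrpl23 (limma adjusted p between 0.127 and 0.899). Each also lost its call without 1 or more single libraries. Mrpl58 did so without KO replicate 1 (limma adjusted p = 0.0533), and Mrpl18 without KO replicate 1, KO replicate 2 or WT replicate 1 (0.143, 0.0806 and 0.107). Mrpl20 did so without KO replicate 2, WT replicate 1 or WT replicate 2 (limma adjusted p = 0.144, 0.096 and 0.12), and Mrpl23 without KO replicate 1, KO replicate 2 or WT replicate 2 (0.188, 0.103 and 0.164).

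Mrpl14, Mrpl33 and Mrpl51 were the large-subunit genes that rose. Mrpl14 (chr17:45686322-45698495, plus strand, GRCm38), of a bacterial-type family at the interface between the subunits, had 26.29 and 28.54 FPKM in KO and 21.60 and 23.77 FPKM in WT. KO exceeded WT by 0.26 on the log2 scale (SE 0.06, limma adjusted p = 0.00765). Without KO replicate 2 it was 0.21 (adjusted p = 0.0815) and without WT replicate 1 it was 0.20 (0.0565). Mrpl33, a small bacterial-type protein, had 51.14 and 51.67 FPKM in KO and 44.97 and 45.11 FPKM in WT, with the smallest spread within groups of these 3 genes and a log2 fold change of 0.19 (SE 0.03, limma adjusted p = 0.00175). Mrpl51, specific to mitochondria, had 25.00 and 24.13 FPKM in KO and 21.31 and 22.96 FPKM in WT. Its call (log2 fold change 0.14, limma adjusted p = 0.0332) was lost without KO replicate 1, KO replicate 2 or WT replicate 1 (0.187, 0.0929 and 0.156), with median-of-ratios scaling (0.113) and without crystallin and erythroid genes (0.25).

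Among small-subunit genes, Mrps33, Mrps23 and Mrps11 fell. Mrps33, specific to mitochondria, had 35.33 and 41.76 FPKM in KO and 48.71 and 53.23 FPKM in WT. The KO mean was 38.5 ± 4.55 and the WT mean 51.0 ± 3.20 FPKM (SD, n = 2 each), a log2 fold change of -0.40 (SE 0.08, limma adjusted p = 0.0045). This was the largest fall among the members, and without WT replicate 2 it was -0.33 (adjusted p = 0.0553). Mrps23, also specific to mitochondria, had 29.60 and 30.30 FPKM in KO and 34.38 and 37.13 FPKM in WT (log2 fold change -0.25, SE 0.04, limma adjusted p = 0.00292). Mrps11, a bacterial-type protein of the platform, had 15.49 and 16.82 FPKM in KO and 18.43 and 20.21 FPKM in WT (log2 fold change -0.24, SE 0.06, limma adjusted p = 0.0112). The Mrps11 call was lost without KO replicate 1 (0.0998), without WT replicate 2 (0.08) and with TPM, where its log2 fold change was -0.13 (0.0781).

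Mrps16 and Mrps18b were the small-subunit genes that rose. Mrps16, a bacterial-type protein whose loss in humans causes a disorder of oxidative phosphorylation, had 30.66 and 32.76 FPKM in KO and 24.24 and 27.45 FPKM in WT. It stood at 31.7 ± 1.48 FPKM in KO and 25.8 ± 2.27 FPKM in WT (SD, n = 2 each), a log2 fold change of 0.29 (SE 0.06, limma adjusted p = 0.00707) and 0.24 without KO replicate 2 (0.0848). Mrps18b had 15.16 and 16.07 FPKM in KO and 13.40 and 13.95 FPKM in WT. Its log2 fold change of 0.18 (SE 0.05, limma adjusted p = 0.0164) lost its call without KO replicate 2 (0.112), without WT replicate 1 (0.0898) and without crystallin and erythroid genes (0.102).

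**Figure D4:**
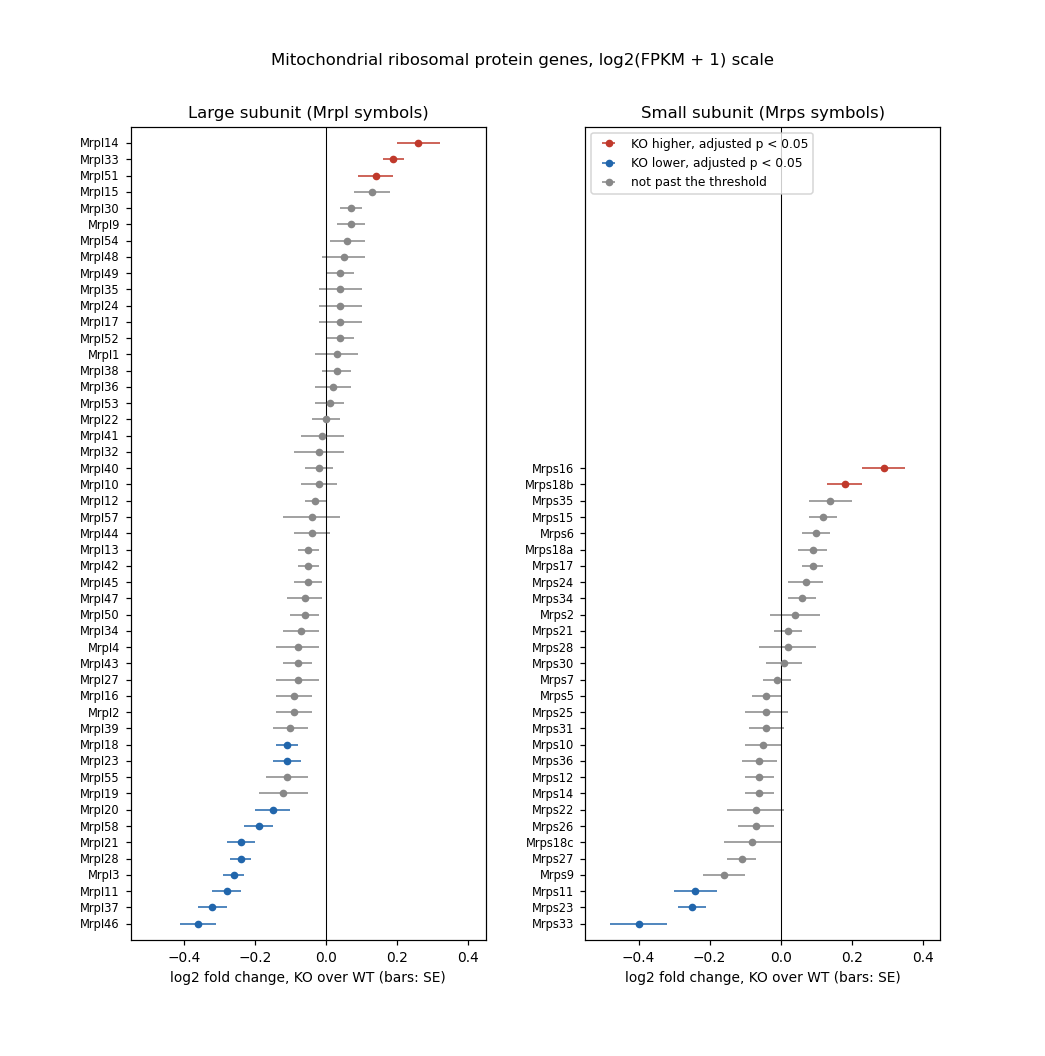
Log2 fold change of KO over WT for each of the 78 members, with the SE as bars, for the large-subunit (left) and small-subunit genes (right), coloured by call (13 lower, 5 higher, 60 not past the threshold). The values lie between -0.40 and 0.29 on the FPKM scale; with TPM the median of both subunits lies above 0.

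**Figure D5:**
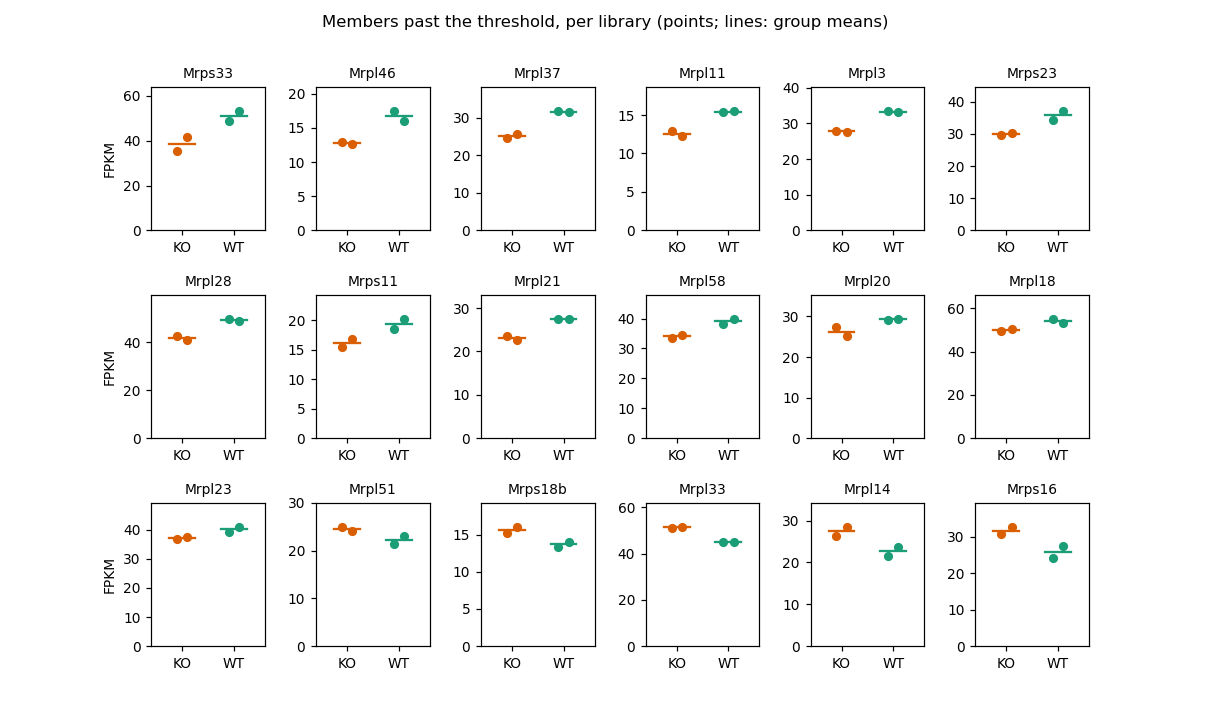
FPKM in each library (points) and group mean (lines) for the 18 members past the threshold, KO left and WT right, each axis from 0. In each panel the 2 KO points lie beyond the 2 WT points, and for Mrps33 and Mrps16 the libraries of a group are farthest apart.

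The calls were also counted by place in the structure, beside 33.5% higher and 21.1% lower among all tested genes. The L7/L12 stalk, which recruits translation factors, had 1 of 5 genes called (Mrpl11, lower), and its median log2 fold change was -0.02, or 0.10 with TPM. Mrpl12, the L7/L12 protein of the stalk, had 42.56 and 42.25 FPKM in KO and 44.01 and 42.67 FPKM in WT and did not pass with FPKM; its log2 fold change of -0.03 was 0.09 with TPM and -0.11 without crystallin and erythroid genes (limma adjusted p = 0.0342). At the tunnel exit 1 of 8 was called (Mrpl23, lower), with a median of -0.05 that was 0.07 with TPM. In the central protuberance 3 of 7 were called, all lower (Mrpl46, Mrpl58 and Mrpl18), with a median of -0.11, which was 0.01 with TPM. Leaving out KO replicate 1 left 1 of these 3 calls, and KO replicate 2 or WT replicate 1 left 2. Of 46 bacterial-type genes 3 rose and 8 fell, and of 31 mitochondrion-specific genes 2 rose and 5 fell, both with a median of -0.04, or 0.08 and 0.07 with TPM. Scaling without crystallin and erythroid genes, where 31.2% of all genes were lower, gave 2 lower of the 5 stalk genes, 4 of the 8 tunnel exit genes and 4 of the 7 central protuberance genes (median -0.18). With it 3 bacterial-type genes rose and 19 fell, and 12 mitochondrion-specific genes fell and 0 rose by limma (also 0 at an unadjusted p under 0.05). With TPM 61.9% of all genes were called, 49.9% higher. In that scaling 13 bacterial-type genes rose and 4 fell, and 11 mitochondrion-specific genes rose and 4 fell.

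The 3 paralogs of ribosomal protein S18 gave different values. Mrps18a had 27.90 and 29.07 FPKM in KO and 26.87 and 26.36 FPKM in WT (log2 fold change 0.09, limma adjusted p = 0.0677, and 0.22 with TPM, adjusted p = 0.00233). Mrps18b rose, as given above. Mrps18c had 36.90 and 32.79 FPKM in KO and 34.11 and 39.79 FPKM in WT, with overlapping groups and a log2 fold change of -0.08, which was 0.04 with TPM. Over all genes the median was 0.04 with FPKM and 0.16 with TPM. It was -0.005 with median-of-ratios scaling and -0.036 without crystallin and erythroid genes. Whether the paralogs differ from one another was not tested. Mrps30 had 17.24 and 18.09 FPKM in KO and 18.02 and 17.17 FPKM in WT, and Mrps36 had 20.39 and 21.57 FPKM in KO and 22.62 and 21.22 FPKM in WT. Both overlapped between groups.

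Many of these genes start next to another gene. A protein-coding start on the other strand within 1000 bases was annotated for 33 of the 78 members (42.3%), against 14.9% of 13665 tested protein-coding genes. Mrps11 (chr7:78783119-78792989, plus strand, GRCm38) and Mrpl46 (chr7:78775236-78783531, minus strand) are such a pair, encode proteins of different subunits, and both fell. By the GENCODE annotation, used for all overlaps here, these genes overlap at their 5′ ends. The RefSeq starts behind the promoter windows above lie apart, with no overlap. Of 30 members with a tested partner, 8 were called, as were 11 of the partners, where 54.6% of all tested genes were called. Of the 30, 3 changed the same way as the partner. These are Mrps11 and Mrpl46, a single pair counted from both sides, and Mrpl18 with Tcp1, a chaperonin subunit gene. Mrpl18 and Tcp1 both had a log2 fold change of -0.11, and with TPM both had 0.01 with no call. Mrpl51 rose while its partner Ncapd2, a condensin gene, fell (log2 fold change -0.36, limma adjusted p = 8.06e-05). In 7 pairs the partner alone was called, in 4 the member alone and in 15 neither. Of all 78 members, 36 (46.2%) overlap a gene on the opposite strand, and of the 18 called members 9 (50%) do, among them Mrpl14, Mrpl18, Mrpl21, Mrpl33, Mrpl46 and Mrps11 with a protein-coding one. Whether counting used strand is not stated in these sources, so reads of overlapping genes cannot be told apart.

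The promoter motifs were set beside the calls. Of the 13 lower members, 6 held the ETS core, 2 the YY1 motif and 0 the NRF1 motif in the window; of the 5 higher members, 4 held the ETS core, 0 the YY1 motif and 1 the NRF1 motif. Among the 51 matched members not called, 15 held the ETS core (29.4%), 6 the YY1 motif (11.8%) and 12 the NRF1 motif (23.5%). By subunit, the NRF1 motif lay in 23.3% of large-subunit and 11.5% of small-subunit promoters, and the ETS core in 32.6% and 42.3%. These counts are small and carry no test.

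Genes for proteins that act with the mitochondrial ribosome moved in both directions. The FPKM counts of these lists, here and in the next paragraph, stand beside 33.5% higher and 21.1% lower among all tested genes. Of 5 further ribosomal proteins with other symbols, Ptcd3 alone was called, with 25.43 and 25.13 FPKM in KO and 27.82 and 27.48 FPKM in WT (log2 fold change -0.12, limma adjusted p = 0.0184); its call was lost when any one of the 4 libraries was left out (0.053 to 0.0966) and with TPM (0.877). Dap3, which encodes a GTP-binding small-subunit protein, had 44.99 and 42.10 FPKM in KO and 41.81 and 42.02 FPKM in WT and did not pass. Of 13 translation factors 2 rose and 1 fell. The one that fell, 2810006K23Rik, had 10.85 and 10.74 FPKM in KO and 12.39 and 13.66 FPKM in WT (log2 fold change -0.25, limma adjusted p = 0.0081), and it lost its call with TPM (0.0616) and without KO replicate 1 (0.0588) or KO replicate 2 (0.067). Tufm, the elongation factor that delivers aminoacyl-tRNA, had 44.58 and 44.59 FPKM in KO and 40.24 and 39.03 FPKM in WT (log2 fold change 0.17, limma adjusted p = 0.0044, and 0.0768 without crystallin and erythroid genes). Mrrf, the ribosome recycling factor, had 9.65 and 8.65 FPKM in KO and 7.11 and 7.51 FPKM in WT, a log2 fold change of 0.29 that lost its call without KO replicate 1 (limma adjusted p = 0.0666) or WT replicate 1 (0.0621).

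Of 17 mitochondrial aminoacyl-tRNA synthetase genes 2 rose and 1 fell. Cars2, for cysteine, had 10.32 and 10.87 FPKM in KO and 7.75 and 8.30 FPKM in WT (log2 fold change 0.36, limma adjusted p = 0.00149). Sars2, for serine, whose start is next to that of Mrps12, had 9.28 and 9.72 FPKM in KO and 13.07 and 11.47 FPKM in WT (log2 fold change -0.34, limma adjusted p = 0.00475, and 0.0585 without KO replicate 1). Of 28 genes for ribosome assembly and RNA modification 3 rose and 4 fell, counts that were 5 and 0 without WT replicate 2 and 1 and 2 without any other single library, and of 11 for mitochondrial DNA replication and transcription 2 rose and 1 fell. In that last list, Slirp, an RNA-binding protein of mitochondria, had 47.46 and 46.39 FPKM in KO and 38.60 and 41.94 FPKM in WT (log2 fold change 0.22, limma adjusted p = 0.00548, and 0.0661 without KO replicate 1). Among 9 tested regulators of nuclear genes for mitochondria 3 rose and 1 fell. Myc, a growth-related transcription factor, had 8.79 and 8.46 FPKM in KO and 5.29 and 4.86 FPKM in WT (log2 fold change 0.66, limma adjusted p = 0.000133). Its relative Mycn had 27.03 and 23.72 FPKM in KO and 32.02 and 32.96 FPKM in WT (log2 fold change -0.35, limma adjusted p = 0.00251). With TPM 61.9% of all genes were called, 49.9% higher. In that scaling 6 translation factors, 8 assembly genes, 7 synthetase genes and 4 genes for mitochondrial DNA rose. The single fall there among these 4 lists was 1 synthetase gene. Without crystallin and erythroid genes, where 25.4% of all genes rose and 31.2% fell, the split went the other way for the first 2 lists. There 1 translation factor rose and 4 fell, and 8 assembly genes fell and 0 rose by limma (2 at an unadjusted p under 0.05). There 2 synthetase genes and 2 genes for mitochondrial DNA rose and 1 of each fell. Median-of-ratios scaling gave 2 higher and 3 lower translation factors and 2 higher and 6 lower assembly genes. Over all genes it gave 28.3% higher and 26.5% lower. With single libraries left out, 1 to 3 translation factors, 1 or 2 synthetase genes, 1 or 2 genes for mitochondrial DNA and 1 to 3 regulators rose, and 0 or 1 of each fell. Nrf1, Gabpa and Yy1, whose motifs were searched above, did not pass with FPKM, with log2 fold changes of -0.03, -0.09 and -0.06. Their values depended on the scaling. With TPM they were 0.08, 0.03 and 0.05, with no call. Without crystallin and erythroid genes they were -0.11, -0.17 and -0.14, all past the threshold (limma adjusted p = 0.0368, 0.0265 and 0.0116), and with median-of-ratios scaling Gabpa (-0.13, adjusted p = 0.0439) and Yy1 (-0.11, 0.0348) passed. The regulators called lower numbered 3 with median-of-ratios scaling and 4 without crystallin and erythroid genes.

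Genes of the cytosolic ribosome, which makes all the imported proteins, were mostly called. Of all tested genes 33.5% rose and 21.1% fell with FPKM, and 25.4% to 49.9% rose with the other scalings. Of 79 cytosolic ribosomal protein genes tested, 74 rose (93.7%) and 0 fell by limma (also 0 at an unadjusted p under 0.05). Their median log2 fold change was 0.24. Over the other scalings 59 to 77 rose and at most 1 fell, and leaving out KO replicate 2 gave 41 that rose and 1 that fell. Relative to the median of all genes the cytosolic group stood between 0.199 and 0.210 and the mitochondrial group between -0.083 and -0.081. These ranges are narrow by construction, since each scaling shifts all genes of a library nearly alike. Where 54.6% of all tested genes were called, 16 of 82 nuclear-encoded respiratory chain genes rose and 9 fell (30.5%). Their median was 0.05, or 0.002 to 0.013 relative to all genes. The split of these calls was 12 and 15 without WT replicate 1, 25 and 4 without WT replicate 2, 8 and 4 without KO replicate 1, 6 and 7 without KO replicate 2, 54 and 3 with TPM, 9 and 12 with median-of-ratios scaling, and 6 and 23 without crystallin and erythroid genes. The splits under each scaling stand beside the all-gene shares given above for that scaling. The differences between these gene groups are descriptions, with no test. Cytosolic ribosomal protein genes have many near-identical processed pseudogenes, and the labels do not say how shared reads were divided.

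The check of the targeted gene and of the tissue applies to each of these values. Anp32b had 94.53 and 92.67 FPKM in KO and 163.18 and 179.12 FPKM in WT, 54.7% of WT (log2 fold change -0.86, limma adjusted p = 1.11e-05), so its transcript was lower but not absent in the libraries labelled KO. Which part of the gene the allele lacks is not stated in the labels. Marker genes of several cell types moved with genotype. All 8 lens markers fell, with summed levels of 2448 and 2446 FPKM in KO and 25018 and 25399 FPKM in WT, and all 8 retinal markers fell, with 717 and 719 FPKM in KO and 1245 and 1240 FPKM in WT. All 8 skeletal muscle markers rose, with 2525 and 2544 FPKM in KO and 1211 and 1271 FPKM in WT, as did all 6 mesenchyme markers, with 2913 and 2929 FPKM in KO and 1334 and 1311 FPKM in WT. Of 6 erythroid markers 5 were tested and rose, with 9617 and 9941 FPKM in KO and 6279 and 6736 FPKM in WT. All 5 surface epithelium markers and all 5 macrophage markers rose, the first with 1091 and 1089 FPKM in KO and 531 and 555 FPKM in WT, the others with 60.9 and 65.9 FPKM in KO and 30.2 and 28.0 FPKM in WT. Of the 3 brown fat markers Cidea rose, with 1.83 and 1.88 FPKM in KO and 0.99 FPKM in both WT libraries (log2 fold change 0.52, limma adjusted p = 0.00236), and Ucp1 and Adipoq were below the level tested. None of the markers was listed at 0 in all 4 libraries. The part of these shifts in the values of the mitochondrial ribosomal protein genes was not tested.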

How the data were processed

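Total RNA of embryonic eye tissue was extracted with Trizol and sequenced on Illumina libraries, per the labels' protocols, in 2 KO and 2 WT libraries. The authors deposited FPKM values and TPM values for each of 18702 genes, per the file headers. HISAT2, TopHat, Cufflinks and DESeq and the builds GRCm38 and GRCh38 stand in the submitters' processing notes, without versions or roles. The sources used here do not state the annotation, filtering steps or strand setting. FPKM divides by all fragments of a library, so a fall in abundant transcripts raises other values. The members and the gene lists were chosen with earlier results of these data known.

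Symbols shown as dates (26) were restored from Entrez numbers, and 18647 numbers (99.7%) were in the RefSeq table. Low FPKM values put the depth near 18000000 to 18120000 fragments per library, but only 52.4% to 61.6% of them lay within 0.15 of a whole fragment (chance 30.0%), so no counts were recovered and no count test was run. The test was limma 3.58.1 in R 4.3.3 on log2(FPKM + 1), with trend=TRUE and genotype alone in the model, genes of mean at least 1 FPKM (13887) and two-sided Benjamini-Hochberg adjusted p under 0.05, with 2 residual and 4.89 prior degrees of freedom. It was also run on simulated data in which few genes changed and no scaling difference between libraries was put in. That setting differs from these libraries, where 54.6% of tested genes were called. The simulated run therefore cannot show how the calls here depend on scaling. With fragments rebuilt from that estimated depth and annotated transcript lengths, the chi-square per gene between replicates was 1.87 in KO and 2.05 in WT. Because no counts were recovered, these values cannot show whether replicates differed beyond counting noise.

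Described members were those past the threshold, the highest and lowest of each subunit, and fixed structural sets; related lists are given by count with up to 3 genes of lowest p, and partner genes and regulators beyond this were picked with their values in view. The alternatives comprised a pseudocount of 0.1, no filter, at least 5 FPKM in at least 2 libraries, TPM, median-of-ratios scaling, scaling without 16 crystallin and 9 erythroid genes, GC and length trends removed, a replicate block, a log2 fold change of at least 0.2, and each library left out. Positions come from GENCODE release M21 and promoters from RefSeq, both of GRCm38. Python 3.11.15, numpy 2.4.6, pandas 2.3.3 and matplotlib 3.10.9 were used.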

Additional observations from a re-analysis of the deposited data

How the results depend on the processing

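The calls of Mrpl3, Mrpl11, Mrpl21, Mrpl28, Mrpl33, Mrpl37, Mrpl46 and Mrps23 kept their direction and their side of the threshold in all 14 fits. The further demand of a log2 fold change of at least 0.2 is a filter and not among these fits, and Mrpl33 (0.19) lost its call there. Fitting with no filter on low values kept 15 of the 18 member calls. It lost those of Mrpl20, Mrpl23 and Mrpl51 (limma adjusted p = 0.0649, 0.0606 and 0.0726). Scaling moved the counts most, and the all-gene shares under each scaling are given above. With TPM 1667 of all genes fell, 24 members rose and 8 fell, 14 large-subunit genes rose and 6 fell, 10 small-subunit genes rose, and the medians were 0.073 (large) and 0.075 (small). Median-of-ratios scaling gave 20 lower members, 6 of them in the small subunit, and a median of -0.087 in both subunits. Scaling without crystallin and erythroid genes gave 3 higher and 32 lower members, 22 lower in the large subunit, 1 higher and 10 lower in the small one, and medians of -0.12 (large) and -0.118 (small). A log2 fold change of at least 0.2 left 2 higher members, 1 and 6 (higher and lower) in the large subunit and 1 higher in the small one. Leaving out 1 library in turn gave 1 to 5 higher members, 1 to 3 higher large-subunit genes, 0 to 3 higher and 1 to 4 lower small-subunit genes, and medians from -0.044 to -0.024 (large) and from -0.027 to -0.01 (small). With TPM the log2 fold change turned to 0.01 for Mrpl18, Mrpl23 and Tcp1, 0.06 for Mrps36, 0.04 for Mrps18c, 0.09 for Mrpl12, 0.08 for Nrf1, 0.03 for Gabpa and 0.05 for Yy1. Mrps30 turned to -0.04 with median-of-ratios scaling and -0.07 without crystallin and erythroid genes, and Mrps30 and Mrps18c to -0.03 and 0.03 without WT replicate 2 and to -0.03 and 0.00 without KO replicate 2 (Mrps18c ran from -0.19 to 0.03 over single libraries left out). A replicate block gave 6 higher and 15 lower members, and all 18 calls were kept; with GC and length trends also removed, 5 small-subunit genes fell. Same-numbered libraries are not stated to be paired, and their deviations correlated at 0.044 over 2 pairs. The causes of these shifts were not tested. Promoter motif shares were also taken over any listed promoter, a choice made after seeing the data, and were 18.8% (NRF1), 37.7% (ETS) and 11.6% (YY1). With 2 libraries a group and no counts, small changes of low genes are not resolved.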
